A study of Arabidopsis thaliana with 12 samples.

Results

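The suspensor is the short file of cells that joins the early plant embryo to the mother tissue, and its nuclei were compared here with nuclei of the whole embryo, which mix those of the suspensor with those of the proembryo. The comparison rests on 6 of the 12 arrays of a study of early Arabidopsis thaliana embryos, 3 of suspensor nuclei and 3 of whole-embryo nuclei, chosen by the sample titles alone. All plants were of the Col-0 ecotype, grown with 16 h of light and 8 h of dark. Both groups came from ovules with embryos of 2 to 16 cells, fixed in 0.1% paraformaldehyde, and nuclei were isolated by flow cytometry from marker lines. Which promoter drove each marker is not given in the sources used here. The other arrays were 3 of proembryo nuclei, prepared alike, and 3 of RNA from whole-embryo cells of 8 to 32 cells, which were not fixed. The labels number the replicates as biological without saying what was repeated, so the spread between arrays may in part be technical. The limma p-values pool that spread over the 9 nuclei arrays and draw it towards that of probe sets of like intensity. They therefore do not measure a probe set's own spread alone. In RNA of sorted nuclei, fewer nuclei of a type and less RNA per nucleus cannot be told apart.

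After the first division of the zygote, the apical cell founds the proembryo, from which nearly the whole plant body arises. The basal cell divides crosswise into the suspensor, which positions the embryo, passes nutrients and hormones to it, divides little and is removed by programmed cell death later in development. Only its uppermost cell joins the embryo proper, as the founder of the root's stem cell centre.

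Each array gave 1 linear intensity value per probe set on the Affymetrix ATH1 array, and all differences below are suspensor minus whole embryo in log2(intensity + 16). Every array was scaled by the authors to the same trimmed mean of 200.02. Arrays of suspensor nuclei correlated with each other at 0.845 to 0.886 across probe sets, those of whole-embryo nuclei at 0.898 to 0.92, and suspensor with whole-embryo arrays at 0.811 to 0.905. Suspensor replicate 1 lay nearest to the whole embryo, at 0.887 to 0.905, which is above its own correlations with the other suspensor arrays, 0.846 and 0.886. The log2 ratio of 3' to 5' signal of actin, a measure of how much of a transcript was copied, was 3.86, 3.57 and 3.34 in suspensor nuclei and 4.71, 4.62 and 4.13 in whole-embryo nuclei, with no overlap (exact two-sided permutation p = 0.1, the smallest that 3 arrays against 3 allow). The same ratio of ubiquitin was 4.51, 5.55 and 5.39 in suspensor nuclei and 4.42, 4.75 and 4.92 in whole-embryo nuclei (exact permutation p = 0.3), with the opposite sign, and that of GAPDH was 7.503, 6.79 and 7.08 in suspensor nuclei and 7.92, 7.92 and 7.29 in whole-embryo nuclei (exact permutation p = 0.2). The hybridisation controls averaged 11.4, 13.0 and 13.9 log2 units in suspensor nuclei and 12.3, 11.8 and 12.9 in whole-embryo nuclei (exact permutation p = 0.6). The part of these in the differences below was not tested.

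The labelled tissues could be checked against few of their markers. The suspensor markers WOX8, WOX9, ARF13, IAA10 and PIN7 have no named probe set here, and SPCH, best known from stomata, fell under the filter on low values. BBM, a transcription factor of the proembryo and an embryo identity gene, read 105, 123 and 76.3 in suspensor nuclei and 221, 204 and 154 in whole-embryo nuclei. Every suspensor array was below every whole-embryo array, but the difference of -0.83 (SE 0.302) did not pass the threshold (limma adjusted p = 0.201). The other apical genes with a probe set, CR4, GSO1 and PHV, differed by -0.60, -0.29 and 0.51, all with overlapping arrays. The label of the suspensor thus rests on the sort and not on a marker measured here.

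Transcripts of tissues that surround the embryo were also read. Of 4 named endosperm markers 3 passed the filter, none past the threshold: AGL62, which holds back endosperm cellularisation, read 62.9, 116 and 125 in suspensor nuclei and 25.5, 35.5 and 79.9 in whole-embryo nuclei (difference 0.95, SE 0.565, limma adjusted p = 0.476). IKU1 and AGL80 differed by 0.27 and 0.12, and IKU2, which fell under the filter, read 8.09, 98.4 and 99.3 in suspensor nuclei and 18.0, 5.13 and 6.86 in whole-embryo nuclei, with overlap. Both named seed coat markers lay far above the array medians in both groups. BAN, the anthocyanidin reductase of the seed coat, read 7828, 11450 and 9067 in suspensor nuclei and 6403, 7493 and 7348 in whole-embryo nuclei, a difference of 0.40 (SE 0.245, limma adjusted p = 0.49). DFR, which acts earlier in the same pigment pathway, read 1804, 2320 and 1639 in suspensor nuclei and 2549, 2738 and 2124 in whole-embryo nuclei, a difference of -0.37 (SE 0.225, limma adjusted p = 0.49). The 2 seed coat markers had opposite signs. The 3 endosperm markers kept had positive differences, but that of IKU1 was -0.168 without whole-embryo nuclei replicate 2. The whole-embryo values of AGL62 all lay under their arrays' medians. The part of seed coat or endosperm RNA in the results was not tested.

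Of the 12787 probe sets kept by the filter, 199 (1.56%) passed a Benjamini-Hochberg adjusted p of 0.05 in limma, 76 (0.594%) higher and 123 (0.962%) lower in the suspensor. All 76 higher probe sets differed by at least 2-fold and 14 by at least 4-fold, with a median of 1.56 log2 units. Of the 123 lower ones 117 differed by at least 2-fold and 10 by at least 4-fold, with a median of -1.35. One gene could be named for 107 of the 199, 42 of those higher and 65 of those lower, while 6 matched several genes and 86 are unnamed here. Among the named genes only 6 of the higher and 5 of the lower ones have a symbol other than their locus tag. Of the 36 higher and 60 lower ones known by locus tag, mainly the 8 with the largest differences in each direction are described below. Suspensor and whole-embryo arrays did not overlap for 2417 probe sets tested (18.9%), among them all 76 of the higher and 122 of the 123 lower ones.

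**Figure D1:**
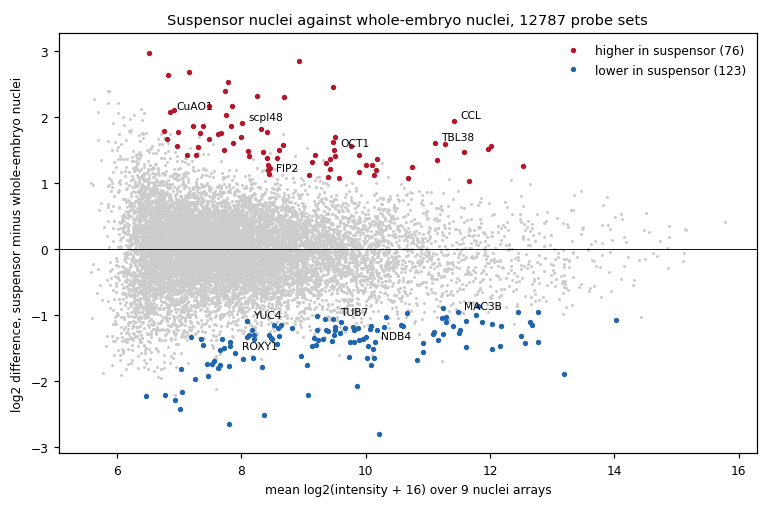
Log2 difference, suspensor minus whole-embryo nuclei (vertical axis), against mean log2(intensity + 16) over the 9 nuclei arrays (horizontal axis), 1 point per probe set kept by the filter. Red points are the 76 probe sets higher and blue points the 123 lower in the suspensor past the threshold, and grey points are the others; genes with a symbol are labelled.

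The count rests strongly on single arrays. Without whole-embryo nuclei replicate 1, 2 or 3 it was 37, 27 or 122 probe sets, and without suspensor replicate 1, 2 or 3 it was 309, 57 or 92. Of 28 named probe sets past the threshold, all kept their direction under every alternative in which they were measured. With 1 array left out a change of direction could not happen, as their groups did not overlap. Of the 28, 10, 9 and 18 were still past the threshold without whole-embryo nuclei replicate 1, 2 and 3. Without suspensor replicate 1, 2 and 3, 24, 15 and 15 of the 27 measured there were. The genes past the threshold under all alternatives in which they were measured were CCL, AT2G31945, AT1G16950, AT2G25625 and AT3G12440. AT3G12440 was measured in 21 of the 22 and AT2G25625 in only 18. AT2G25625 passed the filter only through the 3 suspensor arrays, the group where it is high. It was therefore not measured when a suspensor array was left out, and could not lose its call there.

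Among genes with a symbol only CCL (AT3G26740, chromosome 3) was past the threshold under all 22 alternatives; its transcript is known for a short life and a daily rhythm. It read 6507, 4749 and 5661 in suspensor nuclei and 1179, 1437 and 1805 in whole-embryo nuclei. The groups lay far apart, with a difference of 1.93 (limma adjusted p = 0.00228, SE 0.252, 3 arrays each), or 1.79 to 2.09 when any 1 array was left out. In whole-embryo cells the same gene read only 295, 147 and 146, below all nuclei arrays.

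CuAO1 (AT1G62810, chromosome 1), a copper amine oxidase that breaks down polyamines and releases hydrogen peroxide, read 309, 246 and 177 in suspensor nuclei and 26.8, 54.1 and 57.3 in whole-embryo nuclei. The whole-embryo values lay under their arrays' medians of 83.5, 76.0 and 94.8, and the difference was 2.08 (SE 0.394, limma adjusted p = 0.0157). CuAO1 lost the call without suspensor replicate 2 and without whole-embryo nuclei replicate 1 or 2, with differences of 1.83 to 2.27 over single arrays left out. The serine carboxypeptidase-like gene scpl48 (AT3G45010, chromosome 3) read 687, 491 and 469 in suspensor nuclei and 105, 99.8 and 216 in whole-embryo nuclei. Its difference was 1.91 (SE 0.348, limma adjusted p = 0.0112), and it lost the call without whole-embryo nuclei replicate 1 or 2, with 1.74 to 2.24 over single arrays left out.

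Genes that act at the cell surface were also among the risers. TBL38 (AT1G29050, chromosome 1) belongs to a family best known for acetylating cell wall polysaccharides, and it read 2870, 5581 and 5881 in suspensor nuclei and 1387, 1442 and 1648 in whole-embryo nuclei. Suspensor replicate 1 was the lowest of its group but still above every whole-embryo array. The difference was 1.60 (SE 0.281, limma adjusted p = 0.00987). OCT1 (AT1G73220, chromosome 1), a plasma membrane carrier of carnitine and other organic cations, read 893, 1373 and 1499 in suspensor nuclei and 374, 517 and 383 in whole-embryo nuclei (difference 1.51, SE 0.277, limma adjusted p = 0.0113). TBL38 lost the call without suspensor replicate 2 or whole-embryo nuclei replicate 1 or 2 (1.42 to 1.93 over single arrays left out), and OCT1 without suspensor replicate 2 or whole-embryo nuclei replicate 1 (1.37 to 1.73).

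FIP2 (AT5G55000, chromosome 5) encodes a protein that binds a formin, a nucleator of actin filaments. It read 557, 598 and 621 in suspensor nuclei, against 224, 263 and 302 in whole-embryo nuclei, and rose by 1.13 (SE 0.261, limma adjusted p = 0.0382). AT4G33150 (chromosome 4), the lysine-degrading enzyme LKR/SDH, was singled out after its values were seen. It read 646, 209 and 250 in suspensor nuclei and 91.6, 89.3 and 93.7 in whole-embryo nuclei, a difference of 1.67 (SE 0.4, limma adjusted p = 0.0448). Suspensor replicate 1 was far above the others, and the call was lost without any 1 of the 6 arrays compared or proembryo replicate 2, with differences of 1.19 to 1.97. FIP2 lost its call without suspensor replicate 2 or 3 or any 1 whole-embryo nuclei array, with 1.03 to 1.23.

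Of the 65 named genes that were lower in the suspensor, 5 have a symbol and are described first. ROXY1 (AT3G02000, chromosome 3), a plant-specific glutaredoxin that binds TGA transcription factors and is known from petal formation, read 69.5, 144 and 93.2 in suspensor nuclei and 323, 371 and 280 in whole-embryo nuclei. Among genes with a symbol past the threshold it had the steepest fall, -1.57 (SE 0.337, limma adjusted p = 0.0305). YUC4 (AT5G11320, chromosome 5), a flavin monooxygenase of auxin synthesis, read 159, 129 and 155 in suspensor nuclei and 339, 323 and 331 in whole-embryo nuclei. Both groups were tight and well apart, at a difference of -1.09 (SE 0.266, limma adjusted p = 0.0482), which lies just inside the threshold. ROXY1 lost the call without suspensor replicate 1 or 3 or any 1 whole-embryo nuclei array (-1.81 to -1.36), and YUC4 without any 1 of the 9 nuclei arrays (-1.14 to -1.002).

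NDB4 (AT2G20800, chromosome 2), an alternative NAD(P)H dehydrogenase of the mitochondrion, read 653, 406 and 708 in suspensor nuclei and 1906, 1876 and 1038 in whole-embryo nuclei, a difference of -1.41 (SE 0.299, limma adjusted p = 0.0284). The beta-tubulin gene TUB7 (AT2G29550, chromosome 2) read 541, 345 and 341 in suspensor nuclei and 813, 869 and 859 in whole-embryo nuclei, a difference of -1.05 (SE 0.253, limma adjusted p = 0.0448). Suspensor replicate 1 was the suspensor array nearest to the whole embryo for TUB7. MAC3B (AT2G33340, chromosome 2), a ubiquitin ligase of the Prp19 complex that acts in splicing and immunity, read 2004, 1790 and 1823 in suspensor nuclei and 3357, 4205 and 3421 in whole-embryo nuclei, a difference of -0.96 (SE 0.217, limma adjusted p = 0.0361). NDB4 lost the call without suspensor replicate 2 or whole-embryo nuclei replicate 1 or 2 (-1.70 to -1.17), MAC3B without suspensor replicate 2 or 3 or any 1 whole-embryo nuclei array (-1.01 to -0.85), and TUB7 in all of these cases and without any 1 proembryo array (-1.26 to -0.94).

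**Figure D2:**
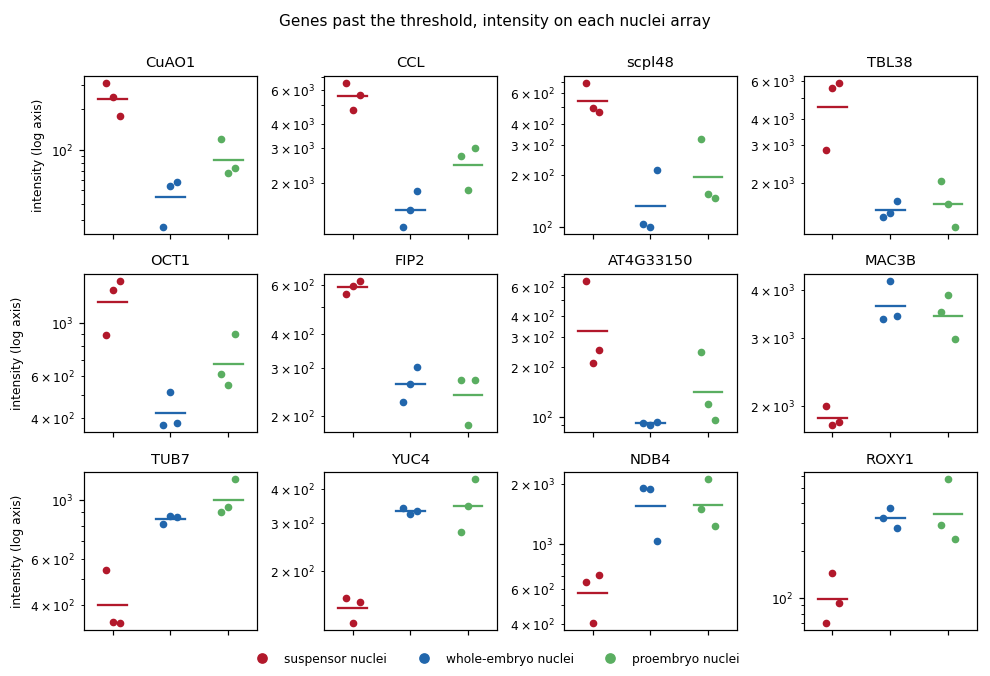
Intensity on each nuclei array (vertical axes, logarithmic) for the 11 genes with a symbol past the threshold and for AT4G33150, with suspensor nuclei in red, whole-embryo nuclei in blue and proembryo nuclei in green. Each point is 1 array and the bar is the mean taken in log2(intensity + 16); for each gene shown, all 3 suspensor points lie to the same side of all whole-embryo points.

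Larger differences were found among genes known only by locus tag. AT2G25625 (chromosome 2) read 376, 236 and 201 in suspensor nuclei and 25.4, 8.36 and 27.3 in whole-embryo nuclei, a difference of 2.98 (SE 0.461, limma adjusted p = 0.00556). Its whole-embryo values were all far under their arrays' medians, so the size of the difference depends on the pseudocount. It ran from 1.96 to 3.78 over the 18 alternatives in which the gene was measured. AT2G31945 (chromosome 2) read 2298, 1118 and 1935 in suspensor nuclei and 206, 152 and 351 in whole-embryo nuclei, a difference of 2.85 (SE 0.345, limma adjusted p = 0.00125). AT1G16950 (chromosome 1) was the most even, with 1212, 1044 and 952 in suspensor nuclei and 270, 176 and 175 in whole-embryo nuclei (2.30, SE 0.273, limma adjusted p = 0.00125).

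AT1G05340 (chromosome 1) read 949, 543 and 555 in suspensor nuclei and 109, 51.5 and 171 in whole-embryo nuclei (difference 2.53), and it kept its call under every single array left out. AT1G24600 (chromosome 1) read 304, 336 and 860 in suspensor nuclei and 56.3, 24.6 and 111 in whole-embryo nuclei (2.68). AT2G05540 (chromosome 2) read 2511, 2493 and 1436 in suspensor nuclei and 823, 223 and 262 in whole-embryo nuclei (2.46). In the last gene whole-embryo replicate 1 stood well above the other 2 of its group. AT3G61930 (chromosome 3) read 551, 528 and 581 in suspensor nuclei against a wide spread of 240, 38.0 and 74.8 in whole-embryo nuclei (2.40), and AT5G39640 (chromosome 5) read 317, 543 and 506 against 20.1, 272 and 86.5 (2.17). Both differences ran over a wide range with 1 array left out, 1.90 to 3.02 and 1.42 to 2.92. AT1G24600 lost its call without suspensor replicate 3 or whole-embryo nuclei replicate 1 or 2 (2.22 to 3.09), AT2G05540 without whole-embryo nuclei replicate 2 (2.12 to 3.02), and AT3G61930 without suspensor replicate 2 or 3 or whole-embryo nuclei replicate 2 or 3. AT5G39640 lost it without any 1 of suspensor replicate 2 and 3, whole-embryo nuclei replicate 1 and 3 and the proembryo arrays.

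These genes were also read in whole-embryo cells. For 6 of the 8, the whole-embryo cells lay under every array of whole-embryo nuclei, with no overlap, where 16.4% of all probe sets tested did so, and this held as well for 5 of the 8 locus-tag genes with the largest falls. The exceptions were AT5G39640, at 423, 372 and 208 in cells, and AT2G25625, at 9.87, 4.76 and 3.37, where cells overlapped the nuclei. AT1G16950 read 31.0, 5.70 and 2.82 in cells and AT2G05540 54.9, 9.68 and 24.0. Over all 76 higher probe sets the number was 22, and over the 123 lower ones 33. Both comparisons use the same whole-embryo nuclei arrays. Genes chosen as lower in the suspensor tend to be high on those arrays, which favours cells lying under them. In AT3G44380, 1 of the 5, the highest cell array read 109.3 and the lowest array of whole-embryo nuclei 109.4. Stage, fixation and extraction differ between cells and nuclei and cannot be told apart from the compartment.

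Among locus-tag genes that were lower, AT5G48350 (chromosome 5) had the largest fall, at 284, 473 and 206 in suspensor nuclei and 2465, 3298 and 1329 in whole-embryo nuclei (-2.80, SE 0.374, limma adjusted p = 0.00245). The call held with any 1 array left out, with -3.17 to -2.52. AT3G12440 (chromosome 3) read 24.7, 33.0 and 59.7 in suspensor nuclei and 249, 190 and 301 in whole-embryo nuclei (-2.28, SE 0.371, limma adjusted p = 0.00797). Proembryo nuclei read 96.3, 139 and 116, between both groups. AT1G77580 (chromosome 1) had tight groups of 66.9, 105 and 83.9 in suspensor nuclei and 340, 337 and 303 in whole-embryo nuclei (-1.77, SE 0.294, limma adjusted p = 0.00797), and lost its call without whole-embryo nuclei replicate 2 (-1.91 to -1.64 over single arrays left out).

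AT3G17265 (chromosome 3) read 124, 133 and 105 in suspensor nuclei and 603, 400 and 383 in whole-embryo nuclei (-1.79). AT3G17290, also on chromosome 3, read 45.4, 213 and 11.6 in suspensor nuclei and 739, 494 and 235 in whole-embryo nuclei (-2.65), so that suspensor replicate 2 came close to the lowest whole-embryo array. The others of the 8 were AT3G44380 (-2.23), AT4G00390 (-2.17) and AT1G71870 (-1.81). AT3G44380 read 59.5, 7.06 and 8.56 in suspensor nuclei and 171, 172 and 109 in whole-embryo nuclei. AT4G00390 read 51.8, 66.5 and 7.14 in suspensor nuclei and 168, 285 and 195 in whole-embryo nuclei, and AT1G71870 read 88.5, 119 and 24.3 against 298, 363 and 188. In these 3 genes the lowest suspensor array stood well under the others of its group or, in AT3G44380, the highest well above them. AT3G17265, AT3G17290, AT3G44380, AT4G00390 and AT1G71870 all lost the call without whole-embryo nuclei replicate 1 or 2, at differences of -1.58 to -1.90, -1.95 to -3.48, -1.93 to -2.78, -1.60 to -2.52 and -1.29 to -2.16 over single arrays left out. AT3G17290 and AT1G71870 also lost it without suspensor replicate 3, AT4G00390 without whole-embryo nuclei replicate 3, and AT3G44380 without suspensor replicate 2 or 3, whole-embryo nuclei replicate 3 or any 1 proembryo array.

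**Figure D3:**
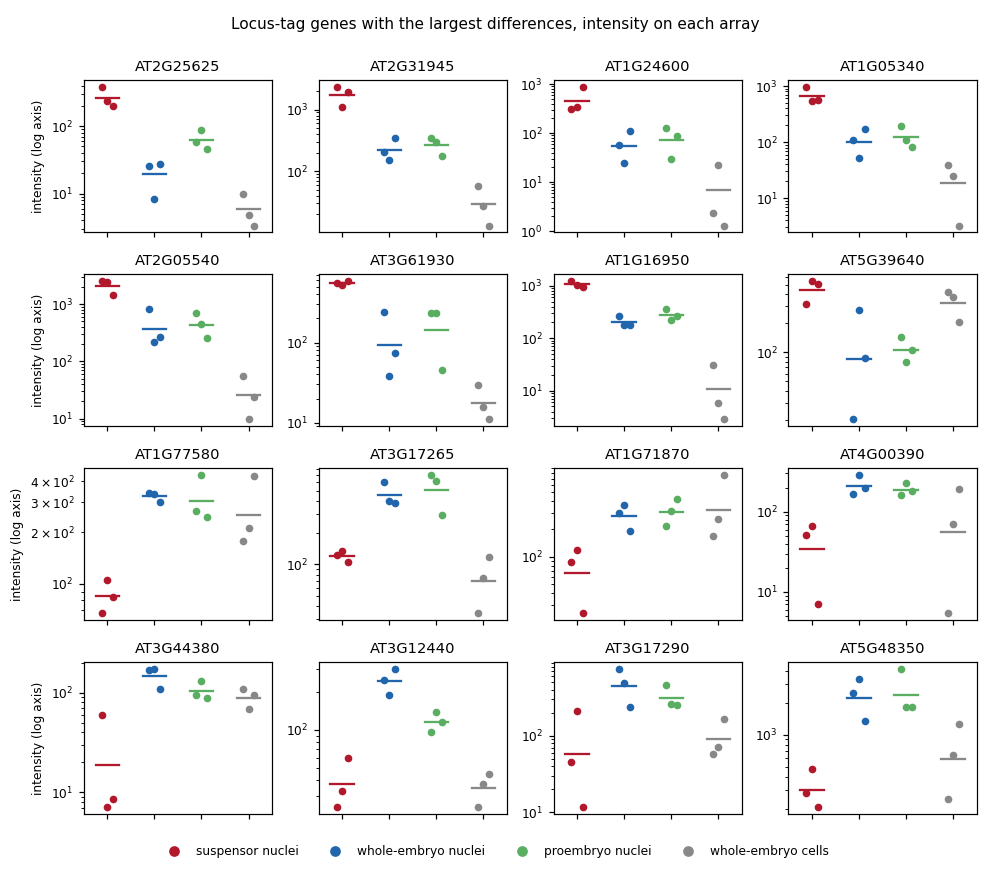
Intensity on each array (vertical axes, logarithmic) for the 8 locus-tag genes with the largest differences in each direction, in suspensor nuclei (red), whole-embryo nuclei (blue), proembryo nuclei (green) and whole-embryo cells (grey). Points are arrays and bars are means taken in log2(intensity + 16); in the upper rows suspensor points stand above the blue points, in the lower rows below them.

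The lower set was spread unevenly over the suspensor arrays. For 70 of the 123 lower probe sets, suspensor replicate 1 was the array nearest to the whole embryo, against 29 and 24 for replicates 2 and 3. Replicate 3 was the farthest for 61. For the 76 higher probe sets the nearest array was replicate 1 for 30, replicate 2 for 23 and replicate 3 for 23. In the median over the 123 lower probe sets, suspensor arrays read 471, 366 and 341 and whole-embryo nuclei 1038, 1177 and 935. Over the 76 higher ones suspensor arrays read 776, 791 and 798 and whole-embryo nuclei 254, 243 and 227. Without suspensor replicate 1 the number of lower calls was 226 and of higher calls 83.

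Proembryo nuclei, which share the whole embryo's other lineage, were placed beside both groups. In the comparison of suspensor with proembryo nuclei, which uses the same suspensor arrays and is no independent check, 39 of the 76 higher and 89 of the 123 lower probe sets also passed in the same direction, where 2.03% of all probe sets passed in either direction. On average, whole-embryo nuclei were intermediate between suspensor and proembryo nuclei for 16 of the 76 higher and 60 of the 123 lower probe sets. For 60 of the 76 and 63 of the 123 it was the proembryo mean that was intermediate, so the whole-embryo mean lay outside the range of the other groups. The same shares over all probe sets tested are not given here. These probe sets were chosen by their distance from the whole-embryo mean, so the counts are a description. CCL, for example, read 2729, 1833 and 3006 in proembryo nuclei, above all whole-embryo nuclei arrays, and CuAO1 read 120, 67.3 and 73.3, likewise above.

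Gene groups were described from lists of named genes, taking the brightest probe set of each gene, and each is read against all 12787 probe sets, whose median difference was -0.006. Of those, 49.6% had a positive sign and 50.4% a negative one, 5.84% were higher and 8.46% lower at an unadjusted limma p under 0.05, and suspensor arrays lay wholly above those of the whole embryo for 9.16% and wholly below for 9.74%. No list had more than 1 member past the adjusted threshold.

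Genes of autophagy and vacuolar proteases had mostly positive signs. ATG8 proteins coat the membrane of the forming autophagosome, and vacuolar processing enzymes are cysteine proteases known for a role in plant cell death. Of 14 named genes 13 passed the filter, 11 with a positive sign, with a median of 0.54 that stayed between 0.38 and 0.59 with any 1 array left out and was 0.29 with the filter at the 75th percentile, which keeps 8. None passed the adjusted threshold, and 6 were higher at an unadjusted p. ATG8E read 471, 189 and 260 in suspensor nuclei and 124, 84.9 and 150 in whole-embryo nuclei (1.18, SE 0.356, limma adjusted p = 0.115). ATG8H read 182, 215 and 209 in suspensor nuclei and 62.2, 59.4 and 125 in whole-embryo nuclei (1.21, SE 0.405, limma adjusted p = 0.165). Arrays of the 2 groups did not overlap for either gene.

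Of the 3 members described next, none overlapped either. GAMMA-VPE, the vacuolar processing enzyme of vegetative organs, read 979, 854 and 861 in suspensor nuclei and 632, 414 and 488 in whole-embryo nuclei (0.81, limma adjusted p = 0.127). ATG8F read 3577, 3279 and 2115 against 1957, 1665 and 1748 in whole-embryo nuclei (0.70, limma adjusted p = 0.212), and APG8A, another ATG8 gene, read 222, 277 and 253 against 155, 154 and 125 (0.73, limma adjusted p = 0.251). DELTA-VPE, known from the seed coat, and BETA-VPE, known from seeds, differed by 0.54 and 0.67. ATG8C and ATG8G had a negative sign, -0.81 and -0.20.

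Transporters of sugars and other nutrients also had mostly positive signs, 9 of the 11 genes kept of 18 named, with a median of 0.42, and OCT1 was the member past the threshold. The median was 0.67 without suspensor replicate 1 and 0.28 without the filter. SWEET proteins let sugars pass membranes down their gradient. SWEET11, which exports sucrose and is known to feed the embryo from the seed coat, read 100, 249 and 219 in suspensor nuclei and 42.7, 62.2 and 136 in whole-embryo nuclei (1.13, SE 0.449, limma adjusted p = 0.251), with overlap. SWEET8 read 1456, 3108 and 1957 in suspensor nuclei and 1520, 1589 and 755 in whole-embryo nuclei (0.75, SE 0.364, limma adjusted p = 0.361), also with overlap. SWEET17, SWEET7 and SWEET1 differed by 0.89, 0.42 and 0.42, and the lowest member, NRT2.5, by -0.20.

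Genes for light harvesting and chlorophyll had positive medians. All 7 named nuclear photosystem genes were kept, 6 with a positive sign and a median of 0.31. PSAE-1, a subunit of photosystem I, read 1719, 1619 and 1743 in suspensor nuclei and 1284, 1023 and 1279 in whole-embryo nuclei (0.50, SE 0.226, limma adjusted p = 0.316). PSBW of photosystem II read 5723, 4863 and 5683 in suspensor nuclei and 4068, 3816 and 3494 in whole-embryo nuclei (0.51, SE 0.23, limma adjusted p = 0.317). In both genes the groups stood apart, with a difference that did not pass. The antenna gene LHCB4.2 differed by 0.67, with overlap.

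In chlorophyll synthesis 5 of 8 named genes were kept and 4 had a positive sign, with a median of 0.62. With the filter at the 75th percentile, which keeps only 2 of these genes, the median was 0.085, and with 1 array left out it was 0.58 to 0.82. PORB, which reduces protochlorophyllide in the light, read 91.3, 163 and 265 in suspensor nuclei and 64.5, 50.02 and 14.9 in whole-embryo nuclei (1.68, SE 0.472, limma adjusted p = 0.0889). HEMA2, a glutamyl-tRNA reductase at the start of the pathway, read 84.9, 145 and 176 in suspensor nuclei and 48.4, 74.1 and 33.1 in whole-embryo nuclei (1.15, limma adjusted p = 0.221). CHLM, a methyltransferase of its magnesium branch, read 587, 577 and 525 in suspensor nuclei and 345, 349 and 392 in whole-embryo nuclei (0.61, limma adjusted p = 0.233). None of the 3 overlapped. Against proembryo nuclei CHLM differed by -0.13 and PORB by 0.40, since proembryo arrays were higher than whole-embryo arrays there. Plastid-encoded genes showed no common direction, with 16 positive and 18 negative signs among 34 kept of 69, a median of -0.02 (-0.43 without suspensor replicate 1, 0.25 without suspensor replicate 2) and a range from -1.70 for psbM to 1.37 for rps15.

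Cell wall genes were mixed. Of 18 kept genes of wall esterification among 23 named, 11 had a positive sign, with a median of 0.21. TBL38 was past the threshold, TBL30 differed by 1.22 (limma adjusted p = 0.201) and TBL39 by -0.96 (limma adjusted p = 0.107). Expansins and xyloglucan endotransglucosylases, which loosen walls, had a median of 0.21 over the 10 kept of 27, from -0.52 for XTH16 to 0.46 for EXPA15. Without whole-embryo nuclei replicate 2 these medians were 0.13 for esterification and 0.028 for loosening, which was 0.10 without suspensor replicate 3. With median centring they were 0.105 and 0.109, and without the filter that of esterification was 0.023. Endoglucanases of family GH9 had a median of 0.42 over 8 kept of 15, and GH9B18 read 339, 367 and 433 in suspensor nuclei and 235, 226 and 250 in whole-embryo nuclei (0.64, limma adjusted p = 0.251). Serine carboxypeptidase-like genes had a median of -0.07 over 17 of 29, and scpl48 was the 1 member past the threshold; this median changed sign between alternatives, from -0.22 without whole-embryo nuclei replicate 1 to 0.13 without the filter.

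Histone genes had mostly negative signs. All 7 named were kept and 6 had a negative sign, with a median of -0.83, or -0.48 without suspensor replicate 3, and none past the threshold. The H2B gene HTB2 read 956, 1043 and 643 in suspensor nuclei and 1703, 1744 and 1398 in whole-embryo nuclei (-0.89, SE 0.243, limma adjusted p = 0.0823). HTB4 read 6132, 3676 and 2734 in suspensor nuclei and 9109, 7539 and 5028 in whole-embryo nuclei (-0.83, limma adjusted p = 0.191). HTB2 did not overlap, while HTB4 did because of suspensor replicate 1. HTB1 read 2538, 1125 and 662 in suspensor nuclei against 2328, 2375 and 2521 in whole-embryo nuclei (-0.95, limma adjusted p = 0.223), with suspensor replicate 1 at the level of the whole embryo. HTR12, the centromeric histone H3, differed by -0.93, and the linker histones HON4 and HIS1-3 by -0.24 and -0.19.

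Genes of the dividing cell's microtubules and spindle had negative medians. Tubulins had a median of -0.36 over 6 kept of 7, with TUB7 past the threshold and 5 negative signs; the filter at the 75th percentile, which keeps 4, gave -0.68. The alpha-tubulin gene TUA6 read 208, 101 and 186 in suspensor nuclei and 285, 611 and 300 in whole-embryo nuclei (-1.16, SE 0.357, limma adjusted p = 0.123), while TUB5 had a positive sign, at 103, 171 and 226 in suspensor nuclei and 116, 36.4 and 79.3 in whole-embryo nuclei (1.01, limma adjusted p = 0.342). Of 18 spindle and mitosis genes kept of 23, 15 had a negative sign and the median was -0.24, or -0.40 and -0.12 without whole-embryo nuclei replicate 1 and 2 and -0.15 with the 6 arrays compared or all 12. BUB3.2, of a spindle checkpoint family, read 61.3, 24.6 and 111 in suspensor nuclei and 142, 173 and 133 in whole-embryo nuclei (-1.16, limma adjusted p = 0.212), and the Aurora kinase genes AUR1, AUR2 and AUR3 differed by -0.31, -0.34 and -0.08.

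Genes of RNA synthesis and processing also had mostly negative signs. In mRNA processing and export 11 of 14 genes, all kept, had a negative sign, with a median of -0.64, and MAC3B passed. At an unadjusted p 7 were lower. FY, a factor of 3' end processing, read 229, 170 and 270 in suspensor nuclei and 420, 388 and 438 in whole-embryo nuclei (-0.87, SE 0.261, limma adjusted p = 0.112). PRP39, a protein of the U1 spliceosomal particle, read 1355, 825 and 718 in suspensor nuclei and 1479, 1861 and 1570 in whole-embryo nuclei (-0.80, SE 0.262, limma adjusted p = 0.153). Both groups were separate for each gene. Y14 of the exon junction complex, the splice site factor U2AF35B and the ring proteins LSM6A and LSM6B differed by -0.81, -0.79, -0.67 and -0.78.

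RNA polymerase subunits had negative signs for 9 of 11 kept genes, with a median of -0.39. NRPB12 read 595, 604 and 441 in suspensor nuclei and 719, 1224 and 910 in whole-embryo nuclei (-0.76, SE 0.261, limma adjusted p = 0.173). NRPB9B read 366, 415 and 310 in suspensor nuclei and 515, 679 and 620 in whole-embryo nuclei (-0.71, limma adjusted p = 0.212). Neither overlapped. NRPB6B read 1047, 330 and 309 in suspensor nuclei and 1004, 1410 and 1020 in whole-embryo nuclei (-1.22, limma adjusted p = 0.118), so that suspensor replicate 1 alone was at the whole-embryo level. The medians of histones, mRNA processing genes and polymerase subunits were negative under all 22 alternatives, and those of autophagy genes, transporters and photosystem genes were positive under all. The alternatives reuse the same arrays and the lists were chosen with earlier results known, so these signs are a description. Other lists also kept their sign, such as endoglucanases of family GH9 (0.293 to 0.516) and tricarboxylic acid cycle genes (-0.388 to -0.119).

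**Figure D4:**
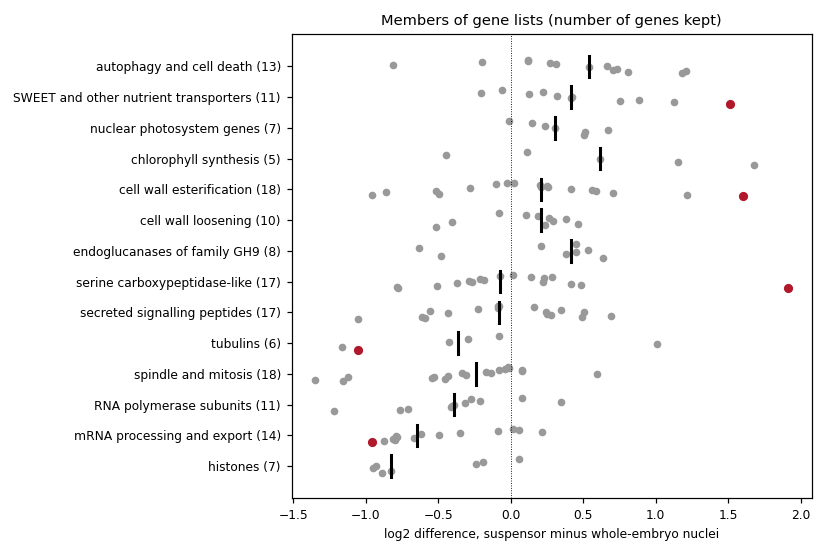
Log2 difference, suspensor minus whole-embryo nuclei (horizontal axis), of each member of 14 gene lists, with the number of genes kept in brackets. Each point is 1 gene, red points are past the threshold of the test over all probe sets, and black bars are list medians; histones and mRNA processing genes lie mostly left of 0 and autophagy genes mostly right of it.

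Auxin and signalling genes varied without a common direction. In auxin synthesis and conjugation 4 of 8 named genes were kept, with YUC4 past the threshold and YUC2 at 98.1, 95.4 and 179 in suspensor nuclei against 60.6, 70.6 and 43.6 in whole-embryo nuclei (0.88, SE 0.445, limma adjusted p = 0.384). These 2 enzymes of the same step thus had opposite signs. The Aux/IAA repressor genes IAA31 and IAA18 differed by -0.69 and -0.43. Among secreted peptides, 17 kept of 26, the median was -0.08, with either sign under the alternatives (-0.18 with median centring, 0.19 without whole-embryo nuclei replicate 3), and RALFL22 of the RALF family, whose members act on cell expansion, read 198, 357 and 393 in suspensor nuclei and 700, 646 and 599 in whole-embryo nuclei (-1.05, SE 0.295, limma adjusted p = 0.0889). RALFL34, known from the divisions that found lateral roots, read 2741, 2126 and 1795 in suspensor nuclei and 3267, 3692 and 2980 in whole-embryo nuclei (-0.59, limma adjusted p = 0.249). AGO7, the Argonaute protein that carries miR390 to make trans-acting small RNAs, read 148, 400 and 306 in suspensor nuclei and 94.8, 138 and 91.8 in whole-embryo nuclei (1.19, SE 0.36, limma adjusted p = 0.116).

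By median, named genes past the threshold were shorter than those tested. The annotated span in the TAIR10.1 gene table had a median of 1164 bases over 41 higher genes and 1533 over 63 lower ones, against 2287 over 6896 genes tested. Of the higher genes 39.0% lay on chromosome 1, where 26.1% of the tested genes lie, and of the lower ones 31.8% lay on chromosome 3, which holds 20.6%. These shares rest on 16 and 20 genes. The quartiles of the span were 788 and 2098 in the higher, 1262 and 2190 in the lower and 1674 and 3171 in the tested genes. Neither the shares nor the spans were tested.

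**Figure D5:**
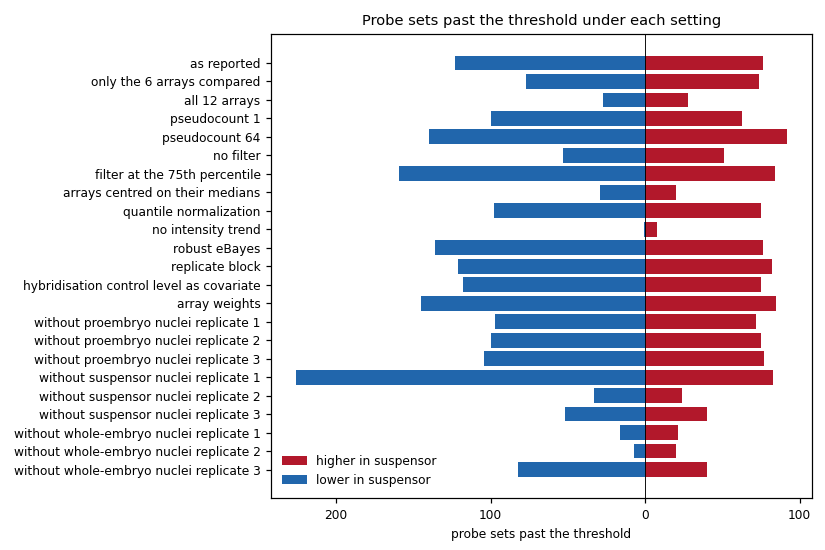
Number of probe sets past the threshold (horizontal axis) under each setting, with those higher in the suspensor to the right of 0 in red and those lower to the left in blue. The top row is the count as reported, 76 and 123; the shortest row, without an intensity trend, has 8 and 1, followed by those without whole-embryo nuclei replicate 2 (20 and 7) and 1 (21 and 16).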

How the data were processed

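Intensity was deposited on a linear scale, with 1 value for each probe set on each array. The submitters' processing notes name MAS5 and affy 1.32.1; no source used here gives the authors' further steps. The trimmed mean (2% off each end) was 200.02 on every array, so nothing was rescaled. The precision is limited by the number of arrays, 3 per group. Of 22746 non-control probe sets, 13513 have 1 gene in the platform annotation, 503 several and 8730 none here; 13436 matched the TAIR10.1 gene table and 1580 have a symbol other than the locus tag.

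Probe sets above their own array's median in at least 3 of the 9 nuclei arrays were kept. Differences of log2(intensity + 16), which understate changes of dim genes, were tested in R 4.3.3 with limma 3.58.1 (1 mean per group, eBayes with an intensity trend, suspensor minus whole embryo) with Benjamini-Hochberg adjustment at 0.05. Array quality was compared by exact permutation tests. The procedure was also run on simulated data with independent noise for each probe set. Such data hold no spread shared by a whole array, so they do not bear on how the calls depend on single arrays.

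Members and lists were chosen with earlier results of these data known; 19 of 47 lists were added after the annotation was seen, and symbols that only look alike were removed. The lists for auxin transport, gibberellin metabolism, the cell cycle and cytosolic ribosomal proteins held no named gene. Named genes are all with a symbol past the threshold, the 8 largest locus-tag differences in each direction, the 3 members with the smallest p in each list, and the lineage, endosperm and seed coat markers; other list members, and AT4G33150, were named after their values were seen. Same-numbered replicates of different groups did not deviate together (correlations of -0.14 to 0.106), so they were not treated as pairs. Python 3.11.15, pandas 2.3.3, scipy 1.17.1 and matplotlib 3.10.9 were used for names, exact tests and plots. The 22 alternatives were the arrays in the fit, the pseudocount, the filter, the scaling, the variance model, a block, a covariate, array weights and each array left out.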

Additional observations from a re-analysis of the deposited data

How the results depend on the processing

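The count of 199 was within 1.5 times that value under 12 of the 22 alternatives and moved further under 10. It was 55 with all 12 arrays, 104 without the filter, 49 with each array centred on its median, 9 without the intensity trend, and 27 to 309 with 1 array left out. The share of higher calls, 38.2%, was 49.0% with only the 6 arrays compared and also without the filter, 50.9% with all 12 arrays, 88.9% without the trend, and 26.9% to 74.1% with 1 array left out. Of the 199, 138 were still past the threshold with only the 6 arrays, 164 with quantile normalization and 157 without suspensor replicate 1. Median centring moved the median of all probe sets to -0.109, and all differences under it are to be read against that shift. With the replicate number as a block 203 passed, 176 of them among the 199, and the check of the pairing found no tie between same-numbered arrays; TUB7 and YUC4 lost their call there. No named gene past the threshold reversed, which with 1 array left out could not happen, as their groups did not overlap. Among those not past it, 19 values changed sign. POLA3, at 0.05 as reported, was -0.048 with centring, -0.047 with the control level as a covariate, -0.082 with array weights and -0.308 to 0.292 with 1 array left out. ICU2, at 0.005, was -0.000 with a pseudocount of 1, -0.097 with centring, -0.077 with quantile normalization, -0.014 with the covariate and -0.274 to 0.166 with 1 array left out. With 1 array left out, PHV ran from -0.696 to 1.29, SDP1-LIKE from -0.212 to 0.926, IKU1 from -0.168 to 0.618, GSTU16 from -0.021 to 0.615, CML43 from -0.023 to 0.359, GH3.3 from -0.476 to 0.248 and IQD22 from -0.706 to 0.261. The cause of these changes was not tested. Dim probe sets are the least certain: for 6 of the 76 higher ones all whole-embryo nuclei values, and for 7 of the 123 lower ones all suspensor values, lay under their arrays' medians. No setting was left out.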

Other observations

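OCT1 (AT1G73220) and its neighbour AT1G73230 on chromosome 1, with no protein-coding gene between them, were past the threshold in opposite directions, at 1.51 and -1.52. AT2G27710 and AT2G27720, neighbours on chromosome 2, were both lower, at -1.41 and -1.03. AT5G62440 was past the threshold with one probe set, at -1.62, and not with its other one, at -0.53 (limma adjusted p = 0.441). These genes were picked out after their values were seen.

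Among gene groups with few members past an unadjusted threshold, subunits of succinate dehydrogenase, a respiratory enzyme, differed in sign. SDH1-2 read 29.9, 24.7 and 5.74 in suspensor nuclei and 73.8, 97.0 and 114 in whole-embryo nuclei (-1.68, SE 0.523, limma adjusted p = 0.13), near or under the array medians. SDH2-1 read 576, 753 and 933 in suspensor nuclei and 442, 447 and 464 in whole-embryo nuclei (0.70, limma adjusted p = 0.243). Its other probe set, which fell under the filter, read 5.16, 54.7 and 61.3 in suspensor nuclei and 2.13, 2.23 and 4.04 in whole-embryo nuclei. The pentatricopeptide repeat gene PPR596 read 1983, 1285 and 1902 in suspensor nuclei and 4976, 3178 and 2175 in whole-embryo nuclei (-0.94, limma adjusted p = 0.121). UBC20, a ubiquitin-conjugating enzyme, read 886, 856 and 909 in suspensor nuclei and 1252, 1733 and 1575 in whole-embryo nuclei (-0.76, limma adjusted p = 0.121). The stress-response transcription factor gene BZIP60 read 1365, 804 and 635 in suspensor nuclei and 1437, 1745 and 1298 in whole-embryo nuclei (-0.73, limma adjusted p = 0.224). None of these 5 genes passed the adjusted threshold.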
